A study of Mus musculus with 18 samples.

Results

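Proteasome subunit genes were followed in MOVAS cells, a mouse aortic smooth muscle cell line. They were taken as every row of the deposited expression table whose symbol is Psma, Psmb, Psmc or Psmd followed by a number, or Psme1 to Psme4, with the interferon-inducible Psmb8 and Psmb9 left out. The rule found 41 of 21959 genes, and 39 of them had enough counts to be tested among 13375 genes. The other 2, Psma8 and Psmb11, encode germ cell and thymus forms of the particle and summed to 3 and 15 counts over all 18 libraries.

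RNA was sequenced from 6 groups of 3 libraries. Blank cells had no treatment, H2O2 cells were given hydrogen peroxide, an oxidant, and Dox cells were given doxorubicin, an anthracycline that damages DNA. Both agents are named in the series' design text as inducers of cellular senescence. The labels of B_I, H_I and D_I give only isoliensinine, a plant alkaloid, as the treatment, and by their titles these groups were taken as its arms on Blank, H2O2 and Dox cells. The labels state no doses or times. All groups are cultures of 1 immortalised line, and its markers match a smooth muscle label only in part. Acta2, the smooth muscle actin gene, ran from 806 to 4514 counts scaled to library size (CPM). Smtn ran from 102 to 199 CPM, Cald1 from 35.6 to 119 and Lmod1 from 11.5 to 28.0. Myh11 (1.30 to 31.7) and Cnn1 (1.31 to 12.8) were lower. Tagln and Myocd, 2 other defining genes, did not exceed 0.809 and 0.71 CPM in any library.

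The proteasome is the barrel-shaped protease that breaks down proteins tagged with ubiquitin. Its core, the 20S particle, stacks rings of alpha subunits, which gate the barrel, on rings of beta subunits, of which Psmb5, Psmb6 and Psmb7 carry the constitutive cutting sites. The 19S cap has a base of ATPases (Psmc genes) that unfold and thread substrates, and non-ATPase subunits (most Psmd genes) that bind, de-ubiquitinate and scaffold. Activators encoded by Psme genes can replace the cap, and interferon-inducible subunits such as the product of Psmb10 can replace the constitutive cutting sites. When proteasome activity falls short, the transcription factor NRF1, encoded by Nfe2l1, is known to raise many subunit genes together.

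Counts per library ran from 12859609 to 23284077, and the Dox libraries, at 20140802 or more, were the deepest. Blank_4, B_I_3 and, less far, H2O2_3 stood apart in their groups: chi-square over its degrees of freedom was 45.4 and 59.5 between Blank_4 and the other Blank libraries, 44.9 and 35.2 for B_I_3, 28.0 and 36.9 for H2O2_3, and at most 17.1 between other replicates. In Blank_4, 9 of the 39 subunit genes lay over 0.5 log2 units from the mean of their group's other libraries, 25 were above and 12 below both. Psmb5 and Psmb6 were high there and Psma4 and Psmd1 low, as given below. Counts called over all 39 genes that rest on Blank are therefore also given without Blank_4 and B_I_3. Those that rest on H2O2 are also given without H2O2_3. Counts by part of the particle and counts of pathway genes are given with all libraries only. Summed fibroblast markers (5 of 5 in the table, Lum at 0 in 4 libraries) were at 368 to 458 CPM in Blank and 228 to 236 in Dox. That sum follows mainly Pdgfrb, at 202 to 430 CPM over the 18 libraries. Pdgfra ran from 12.5 to 37.7 CPM, and Dcn, Thy1 and Lum did not exceed 9.89, 4.94 and 2.21. Summed colon markers (5 of 5) were at 37.3 to 143 CPM in H2O2 and 188 to 641 in H_I. Hepatocyte markers (4 of 4) likewise summed to 30.4 to 87.1 CPM in H2O2 and 99.4 to 285 in H_I. Where colon and liver transcripts in cultures of 1 smooth muscle line came from was not tested. Macrophage markers (5 of 5, Adgre1 at 0 in 6 libraries) summed to 10.8 to 34.4 CPM in Blank and 25.8 to 44.0 in Dox. The part of these markers in the results was not tested. In bulk RNA, fewer cells of a type and less RNA per cell cannot be told apart.

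Levels of the subunit genes per length, as deposited FPKM averaged over the 18 libraries, differed widely. The highest were Psmb4 (217) and Psmb6 (209) of the beta ring, the ATPase genes Psmc3 (204) and Psmc5 (203), and Psmb3 (204). The lowest tested were Psme4 (1.94), a nuclear activator, Psmc6 (3.06), an ATPase, and Psmd10 (6.36), a chaperone of base assembly. Genes for subunits that enter the same ring in equal numbers differed widely, as Psma6 stood at 126 and Psma3 at 12.6 FPKM in the alpha ring. FPKM depends on the deposited gene length, which for Psma3 is 3894 bases against 1234 for Psma6. Of the active-site genes, Psmb6 (caspase-like site) was above Psmb5 (chymotrypsin-like, 76.1 FPKM) and Psmb7 (trypsin-like, 20.4 FPKM), and Psmb10, the inducible counterpart of Psmb7, stood at 43.2. In Blank the libraries of Psmb10 (48.5 to 55.3 FPKM) did not overlap those of Psmb7 (14.2 to 16.3 FPKM). The deposited length is 3421 bases for Psmb7 and 1705 for Psmb10, while their longest coding transcripts have 1160 and 1311 bases. The size of the gap between these genes thus depends on the length used.

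In the deposited table, whose build the labels do not state, Psma4 (ENSMUSG00000032301) spans 54858074 to 54865314 on chromosome 9. Psmd11 (ENSMUSG00000017428) spans 80319441 to 80364074 on chromosome 11, Psmb10 (ENSMUSG00000031897) 106662367 to 106665076 on chromosome 8, and Psme1 (ENSMUSG00000022216) 55815580 to 55818986 on chromosome 14. Psme2 is a neighbour of Psme1 on chromosome 14.

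**Figure D1:**
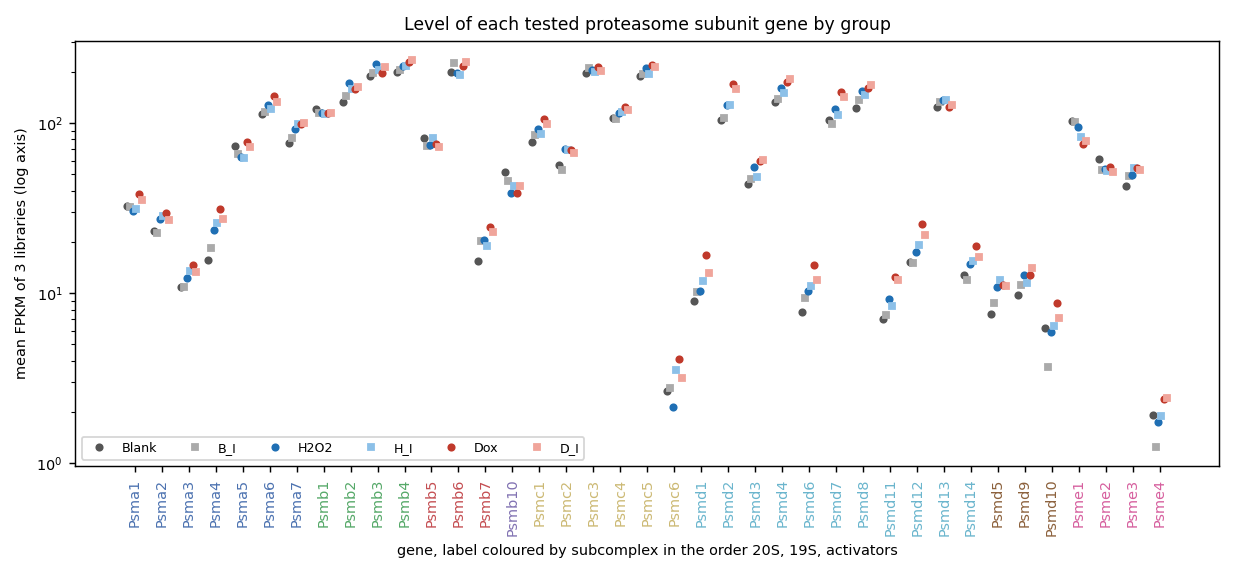
Mean FPKM of 3 libraries (log axis) for the 39 tested subunit genes, with a point per group and labels coloured by part of the particle. Levels run from Psmb4 (217 FPKM over all libraries) to Psme4 (1.94), and the spread between genes is wider than that between groups.

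The first comparison asked what doxorubicin did to these genes. In Dox, 9 of 39 were higher than in Blank and 2 lower by edgeR's quasi-likelihood test (Benjamini-Hochberg adjusted p under 0.05). Those 28.2% compare with 21.7% of all tested genes called. By direction, 23.1% of the subunit genes and 10.3% of all genes were higher, and 5.13% and 11.4% were lower. At an unadjusted p under 0.05 there were 18, against 32.8% of all genes. The subunit genes' median log2 change was 0.19, against 0.08 over all tested genes. Those called higher were Psma4, Psmd6, Psmd1, Psmd11, Psmd12, Psmd2, Psmb7, Psmd5 and Psmd7, and those called lower were Psme1 and Psmb10. Without Blank_4 and B_I_3, 11 were higher and 2 lower. Here and below, the share of all genes called is given for the fit of all libraries and not for alternative fits. Counts from alternative fits therefore lack that background.

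The non-ATPase subunits of the 19S cap held most of the rises, with 6 of 11 higher and 0 lower (54.5% higher, against 10.3% of all genes). Their median log2 change was 0.41. Psmd6, a lid subunit, stood at 24.1, 21.7 and 24.3 CPM in Blank_1, Blank_2 and Blank_4 and at 39.2, 36.3 and 41.1 in Dox_1, Dox_2 and Dox_3. The groups did not overlap (log2 change 0.74, or 1.67-fold, SE 0.159, edgeR adjusted p = 0.00184). Where a pair of values follows a gene in brackets below, the first is its log2 change and the second edgeR's adjusted p. Psmd11 encodes a lid subunit that clamps the cap to the core, and in worms and human stem cells a high level of it has been tied to high proteasome activity.

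Psmd11 lay at 47.4, 48.3 and 49.4 CPM in the Blank libraries and 71.9, 73.5 and 79.4 in the Dox libraries. This was a tight and separate pair of groups (log2 0.63, SE 0.105, adjusted p = 0.000174). Psmd1, which encodes a scaffold protein of the base, was at 86.2, 77.8 and 43.9 CPM in Blank and 109, 99.6 and 139 in Dox. Blank_4 held the lowest value, and without it the change was 0.46, adjusted p = 0.0568, against 0.74 and 0.00968 with it. Psmd1 also lost its call without Dox_3, in a fit of the compared groups alone and with a replicate block. Only Blank_4 bears its replicate number, so here and below the block also takes that library out of the comparisons with Blank. The adjusted p of Psmd1 ran up to 0.0727 over 14 alternatives.

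Psmd2, the other scaffold and a docking site for ubiquitin shuttles, lay at 396 to 495 CPM in Blank and 626 to 677 in Dox (log2 0.52, adjusted p = 0.001). Psmd7, the lid partner of the deubiquitinase, lay at 243 to 259 CPM in Blank and 308 to 349.8 in Dox (0.38, 0.00358), and the libraries did not overlap for either gene. The lid gene Psmd12 was called (0.59, 0.0195), but stood at 0.35, adjusted p = 0.141 without Blank_4, and also lost its call without Dox_3, with a replicate block and in a fit of the compared groups alone. The 5 not called were Psmd14, the lid deubiquitinase (0.41, adjusted p = 0.203), Psmd3 (0.25), Psmd8 (0.22), Psmd13 (-0.19) and the ubiquitin receptor gene Psmd4 (0.22). Of these, Psmd3 (0.40, adjusted p = 0.00207), Psmd4 (0.25, adjusted p = 0.0271) and Psmd8 (0.30, adjusted p = 0.0372) were called higher without Blank_4 and B_I_3.

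The ATPases of the base gave 0 calls among 6, with a median log2 change of 0.08 and 1 of 6 at an unadjusted p under 0.05 and 0 called by DESeq2. Psmc1 was nearest to a call (0.28, adjusted p = 0.0557), while Psmc3, Psmc4 and Psmc5, the most abundant of the 6 by FPKM, lay within 0.1 of no change, with 95% intervals of -0.31 to 0.15, -0.19 to 0.22 and -0.17 to 0.25. Psmc6 had the widest interval (0.47, -0.05 to 0.99) and few counts. Among the 3 chaperones that assemble the base, Psmd5 was called (0.41, 0.0224; 0.29, adjusted p = 0.138 without Blank_4), and it also lost its call without Dox_2 or Dox_3, with a replicate block and in a fit of the compared groups alone. Psmd9 (0.23, 0.082) and Psmd10 (0.31, 0.359) were not.

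In the alpha ring 1 of 7 genes was called. Psma4 stood at 39.6, 51.6 and 26.4 CPM in Blank_1, Blank_2 and Blank_4 and at 70.1, 61.4 and 77.5 in the Dox libraries. Every Dox library was above every Blank library (log2 0.83, SE 0.204, adjusted p = 0.00565). Blank_4 was again lowest, and without it the change was 0.58, adjusted p = 0.0391. The other 6 alpha genes ran from -0.11 (Psma5) to 0.26 (Psma3).

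Of the 3 constitutive active-site genes only Psmb7 was called. It lay at 56.3, 56.8 and 57.6 CPM in Blank and 69.7, 86.5 and 83.1 in Dox, with no overlap (log2 0.49, SE 0.133, adjusted p = 0.0107). Psmb5 had 73.0, 61.9 and 105 CPM in Blank and 64.4, 69.4 and 58.1 in Dox, where Blank_4 was the high library (log2 -0.32, 0.255; -0.10, adjusted p = 0.768 without it). Psmb6 had 359, 298 and 565 CPM in Blank and 364, 418 and 369.7 in Dox, and the groups overlapped (-0.08, 0.794; 0.20, adjusted p = 0.37 without Blank_4).

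Psmb10, whose product takes the place of that of Psmb7 in the immunoproteasome, fell while Psmb7 rose. It stood at 97.1, 87.0 and 97.8 CPM in Blank and 71.4, 62.3 and 54.5 in Dox. All 3 Dox libraries were below all 3 Blank libraries (log2 -0.58, SE 0.144, adjusted p = 0.00558). Psmb8 and Psmb9, the other immunoproteasome subunits, were not called: Psmb9 stood at -0.25 (0.423), and Psmb8 had 10, 4 and 0 counts in the Blank libraries and 51, 15 and 25 in Dox, without overlap (log2 2.12, 95% interval 0.15 to 4.09, adjusted p = 0.122). The structural beta genes Psmb1 (-0.26), Psmb2 (0.07), Psmb3 (-0.13) and Psmb4 (0.00) gave 0 calls among 4, with 1 at an unadjusted p under 0.05 and 0 by DESeq2.

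Among the activators, Psme1 fell. It encodes one of the paired subunits of the interferon-inducible cap that helps make peptides for antigen presentation. Its levels were 246, 224 and 266 CPM in Blank and 159, 165 and 153 in Dox, and no libraries overlapped (log2 -0.63, SE 0.0978, adjusted p = 8.3e-05). Psme2, the partner of Psme1, had 114, 102 and 133 CPM in Blank and 92.5, 98.1 and 85.5 in Dox. Its libraries did not overlap either, but it was not called by edgeR (-0.34, adjusted p = 0.0549), while DESeq2 gave -0.38, adjusted p = 0.0253. Psme3, a nuclear activator outside that pair, had 129, 128 and 151 CPM in Blank and 159, 141 and 156 in Dox (0.16, 0.258). Psme4 had 21.1, 18.7 and 11.5 CPM in Blank and 20.8, 14.1 and 22.1 in Dox (0.15, 0.73), and its groups overlapped.

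**Figure D2:**
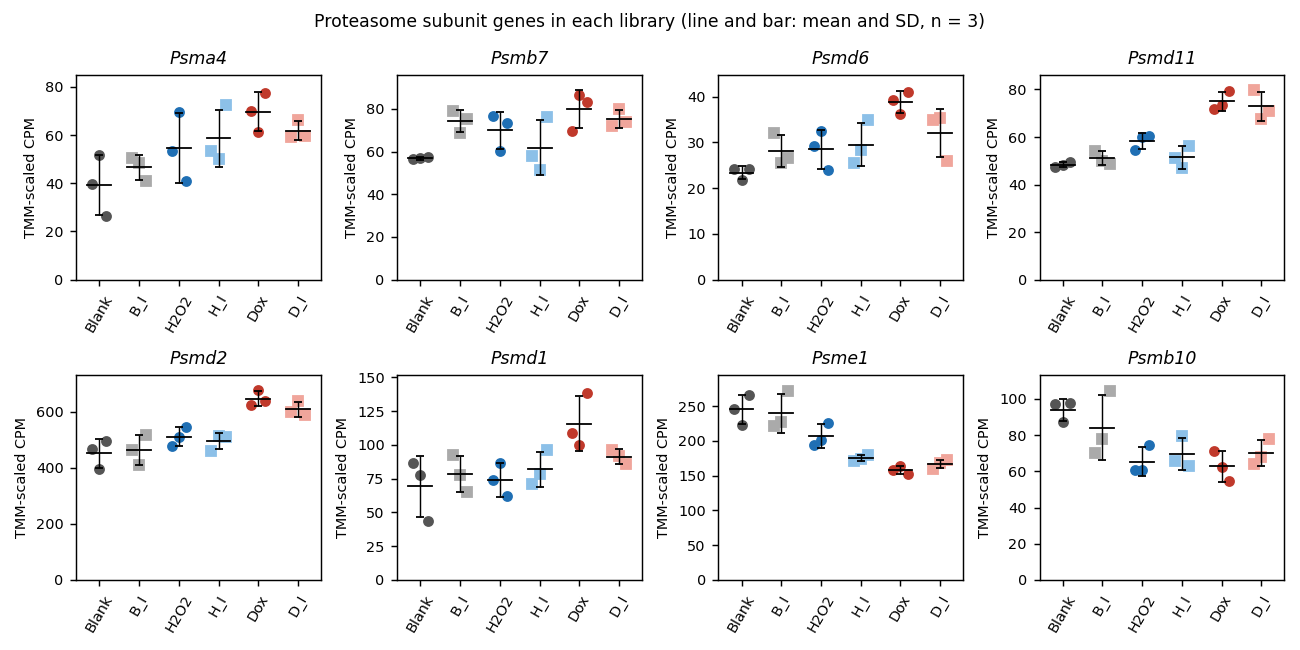
TMM-scaled CPM of 8 subunit genes in each library, by group, with the mean and SD of 3 libraries. The Dox libraries of Psmd11 lie between 71.9 and 79.4 CPM and those of Blank between 47.4 and 49.4, while Psme1 and Psmb10 are lower in Dox.

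Upstream sequences were read from RefSeq (GRCm38.p6), since genes that move together can share promoter motifs. The table held a promoter for 34 of the 41 genes. The 250 bases before the start are given for the 4 largest rises and the 2 falls, 5′ to 3′ on the gene's strand, with capitals at matches to CGGAAG, the core bound by ETS factors, on either strand (CTTCCG is its reverse). They come from chr9:54950609-54950858 (plus strand) for Psma4, chr14:14120946-14121195 (minus) for Psmd6, chr1:86064369-86064618 (plus) for Psmd1, chr11:80428365-80428614 (plus) for Psmd11, chr8:105938393-105938642 (minus) for Psmb10 and chr14:55578244-55578493 (plus) for Psme1.
Psma4: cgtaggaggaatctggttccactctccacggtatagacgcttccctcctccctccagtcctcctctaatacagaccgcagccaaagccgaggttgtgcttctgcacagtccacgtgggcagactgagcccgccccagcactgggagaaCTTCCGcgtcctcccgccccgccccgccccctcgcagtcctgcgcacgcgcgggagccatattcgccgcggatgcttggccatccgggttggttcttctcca
Psmd6: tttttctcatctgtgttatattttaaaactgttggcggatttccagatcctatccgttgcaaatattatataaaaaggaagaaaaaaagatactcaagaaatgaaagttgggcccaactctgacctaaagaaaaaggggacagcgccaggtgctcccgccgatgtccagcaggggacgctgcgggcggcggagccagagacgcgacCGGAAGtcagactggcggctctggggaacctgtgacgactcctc
Psmd1: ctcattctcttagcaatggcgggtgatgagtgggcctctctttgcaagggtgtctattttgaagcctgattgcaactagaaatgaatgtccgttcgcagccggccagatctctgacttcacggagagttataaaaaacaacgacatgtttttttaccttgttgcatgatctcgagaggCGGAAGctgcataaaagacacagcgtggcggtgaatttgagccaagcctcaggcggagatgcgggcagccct
Psmd11: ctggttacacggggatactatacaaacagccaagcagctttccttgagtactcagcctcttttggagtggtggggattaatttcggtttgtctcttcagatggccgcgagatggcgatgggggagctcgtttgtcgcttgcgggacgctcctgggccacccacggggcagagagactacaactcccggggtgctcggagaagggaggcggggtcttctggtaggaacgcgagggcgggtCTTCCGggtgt
Psmb10: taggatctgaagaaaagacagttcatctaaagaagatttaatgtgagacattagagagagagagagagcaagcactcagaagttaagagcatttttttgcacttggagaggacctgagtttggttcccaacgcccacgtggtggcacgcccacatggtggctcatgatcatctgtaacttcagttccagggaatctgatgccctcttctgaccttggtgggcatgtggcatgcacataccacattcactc
Psme1: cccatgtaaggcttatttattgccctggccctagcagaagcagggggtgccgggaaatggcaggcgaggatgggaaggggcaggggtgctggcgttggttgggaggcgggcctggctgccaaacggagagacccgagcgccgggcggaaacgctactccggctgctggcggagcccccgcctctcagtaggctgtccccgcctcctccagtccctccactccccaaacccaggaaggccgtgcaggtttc

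Each of the 4 promoters of genes that rose holds 1 ETS core, which begins 102 bases before the start in Psma4, 72 in Psmd1, 44 in Psmd6 and 11 in Psmd11, and those of Psmb10 and Psme1 hold none. Over all members the core was in 18 of 34 (52.9%), against 13.6% of all 32851 promoters and 27.1% of the 10595 tested genes with a promoter. Here and below a member or tested gene counts if any of its promoters matches, while shares of all promoters count each promoter singly. Only the share of tested genes is therefore a like measure. By call in Dox against Blank it was in 6 of 7 genes called higher, 0 of 2 called lower and 11 of 24 not called. A CCAAT box (both strands) was in 13 of 34 (38.2%), against 33.9% of all promoters and 40.7% of tested genes, and in 0 of the 7 called higher and 12 of the 24 not called. The antioxidant response element core TGACNNNGC, which NRF1 and its relatives bind, was in 5 of 34 (14.7%, against 10.2% of all promoters and 13.8% of tested genes): Psmb5, Psmb6, Psmc6, Psmd9 and Psmd12. TTCNNNGAA, the site of interferon-activated STAT factors, was in 0 of 34 (7.02% of all promoters and 7.01% of tested genes). The 4 motifs were chosen with the calls known, no matches overlapped within a promoter, and a match describes letters in the window, not binding.

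The comparison of H2O2 with Blank asked what the oxidant did. By edgeR's quasi-likelihood test 0 of 39 subunit genes were called, where 1.43% of all genes were. At an unadjusted p under 0.05 there were 11, against 13.6% of all genes. DESeq2 called 3 and so did edgeR without Blank_4 and B_I_3, while without H2O2_3 edgeR called 0. The median log2 change was 0.10, against -0.02 over all genes. All 11 non-ATPase genes of the cap had a positive estimate, between 0.02 and 0.29, and none of them was called. That shared sign rests on Blank_4: without it Psmd1 stood at -0.13, adjusted p = 0.762, Psmd12 at -0.11, adjusted p = 0.804 and Psmd14 at -0.12, adjusted p = 0.828, while Psmd3 was called higher (0.38, adjusted p = 0.0424).

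Psmb10 came nearest to a call. Its H2O2 libraries held 60.6, 60.9 and 74.4 CPM, all below the Blank range of 87.0 to 97.8 (log2 -0.53, SE 0.145, adjusted p = 0.0725). It was called by DESeq2 (-0.51, adjusted p = 0.0409) and without Blank_4 and B_I_3 (-0.48, adjusted p = 0.0333). Psmd5 (0.43, 0.093) and Psmd9 (0.29, 0.136), chaperones of base assembly, were called by DESeq2 alone, and Psmb3 and Psmd3 were called by edgeR only in fits without Blank_4.

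Psma4 had 53.3, 69.7 and 40.8 CPM in H2O2, a range that overlapped Blank (0.48, 0.299). Psmb7 had 76.5, 60.1 and 73.2 CPM, each above the highest Blank library of 57.6 (0.30, 0.325). Psmb5 had 53.7, 60.2 and 84.9 and Psmb6 336, 352 and 406 CPM, both overlapping Blank (-0.27 and -0.16). Without Blank_4, Psmb5 stood at -0.02, edgeR adjusted p = 0.967, and Psmb6 at 0.16, adjusted p = 0.626. Psme1, Psme2, Psme3 and Psme4 stood at -0.24, -0.31, 0.09 and -0.25. Psme1 had 194, 201 and 226 CPM, which overlapped Blank by 1 library.

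**Figure D3:**
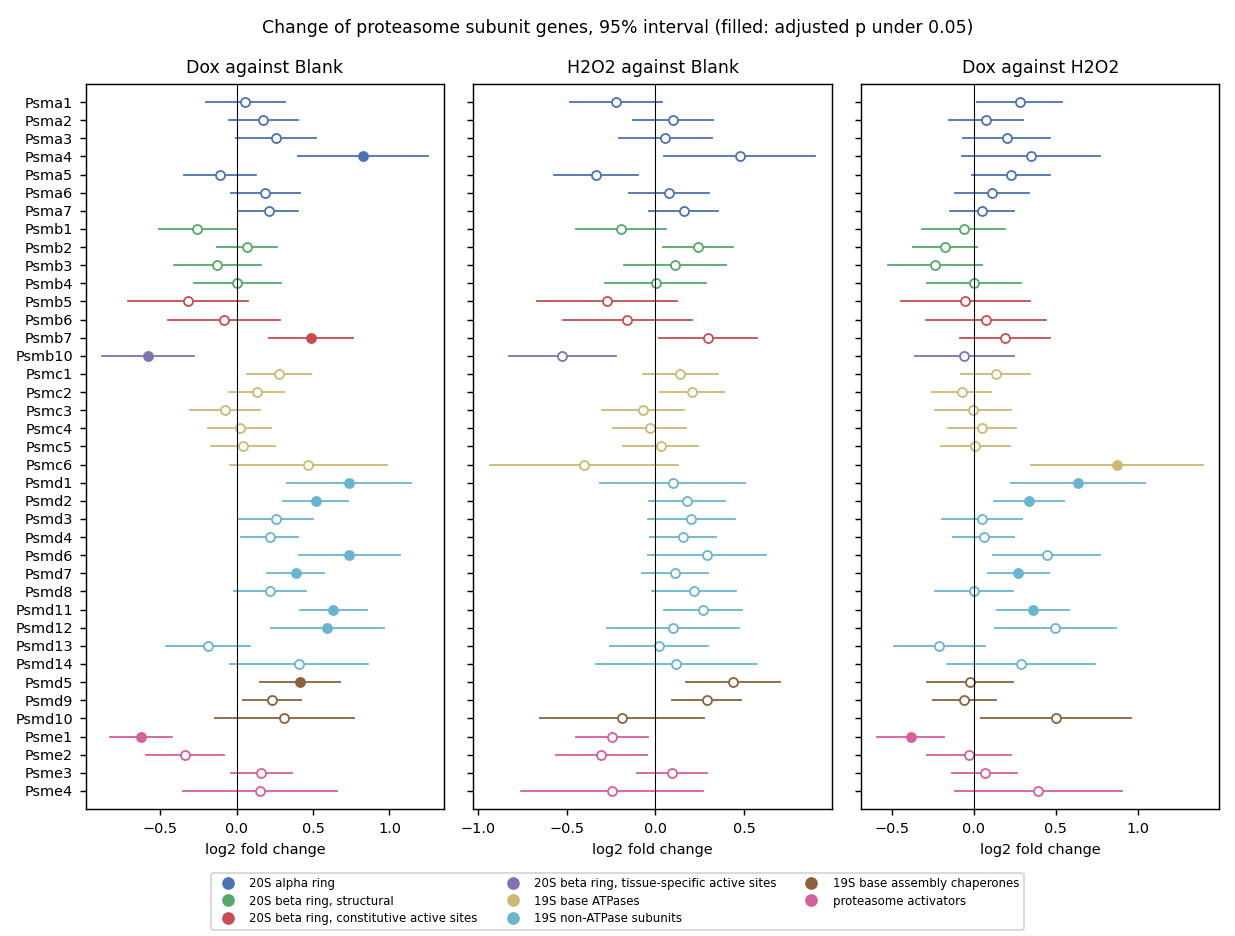
Log2 fold change of the 39 tested genes with 95% intervals in Dox against Blank, H2O2 against Blank and Dox against H2O2, with filled points where edgeR's adjusted p is under 0.05. Filled points are 11, 0 and 6, and the 19S non-ATPase genes sit mostly right of 0 in the first panel.

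Dox and H2O2 were compared directly, since a call in one and not the other does not show a difference. In Dox 5 of 39 genes were higher than in H2O2 and 1 lower (15.4%, against 13.1% of all genes called, 6.73% higher and 6.33% lower). Psmc6, an ATPase of the base, had 7.26, 7.93 and 7.07 CPM in H2O2 and 14.1, 10.9 and 15.8 in Dox, with no overlap (log2 0.87, SE 0.252, edgeR adjusted p = 0.0248). Psmd1 had 73.7, 86.8 and 62.0 CPM in H2O2, all below its Dox libraries (0.64, 0.0356).

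Psmd11, at 54.6, 60.1 and 60.3 CPM in H2O2, lay between Blank and Dox (0.36, 0.0254). Psmd2, at 479, 509.6 and 548 CPM, was also below Dox (0.34, 0.0342), as was Psmd7 (0.27, 0.0489). Psme1 was lower in Dox than in H2O2 (-0.38, 0.0118), and the libraries did not overlap. Psmb10 did not differ beyond its error (-0.06, 95% interval -0.36 to 0.24), nor did Psmb7 (0.19, -0.08 to 0.46). These 6 calls depend on single libraries: the count was 0 without Dox_1 or without Dox_3, 1 without H2O2_1 and 3 without H2O2_3. Over 14 alternatives Psme1 kept its call in 11, Psmc6 in 10, Psmd1 and Psmd11 in 8, Psmd2 in 6 and Psmd7 in 3.

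Isoliensinine was compared within each background. For B_I against Blank, D_I against Dox and H_I against H2O2, edgeR's quasi-likelihood test called 0 of 39 subunit genes, where 0% of all tested genes were called. At an unadjusted p under 0.05 there were 4, 0 and 3, against 4.79%, 4.16% and 6.84% of all genes. DESeq2 called 0 subunit genes in each. Median log2 changes were 0.05, -0.05 and -0.06.

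In D_I against Dox estimates ran from -0.35 (Psmc6) to 0.16 (Psmb10), and the median half-width of the 95% intervals was 0.25 log2 units. Psmd11 had 79.8, 67.7 and 71.1 CPM in D_I beside 71.9 to 79.4 in Dox (95% interval -0.26 to 0.18). Psme1 had 160.1, 168 and 172 CPM (interval -0.13 to 0.28) and Psmb10 64.0, 68.1 and 77.9 (interval -0.14 to 0.46), and both overlapped Dox. Psmb5, Psmb6 and Psmb7 had intervals of -0.44 to 0.34, -0.28 to 0.45 and -0.36 to 0.19.

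In B_I against Blank the furthest estimates were those of 2 low genes. Psmd10 had 5.59, 5.74 and 6.23 CPM in B_I, all below Blank's 11.2, 6.84 and 11.5 (-0.75, adjusted p = 0.917). Psme4 had 14.6, 11.4 and 7.38 CPM in B_I (-0.62, 0.983), and the groups overlapped. Psmb7 had 79.0, 68.8 and 75.0 CPM, each above every Blank library, and was not called (0.39, 0.967).

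In H_I against H2O2 the furthest estimate was that of Psmc6, with 11.4, 10.7 and 13.6 CPM in H_I, all above H2O2 (0.68, 0.569). Psme1 had 172, 174 and 179.8 CPM in H_I, all below H2O2 (-0.24, 0.625). The test of whether the isoliensinine difference itself differed between backgrounds called 0 of 39 subunit genes for Dox and 0 for H2O2 (edgeR, 0% of all genes; unadjusted 2 and 3, against 3.9% and 6.08% of all genes; DESeq2 0 and 0).

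**Figure D4:**
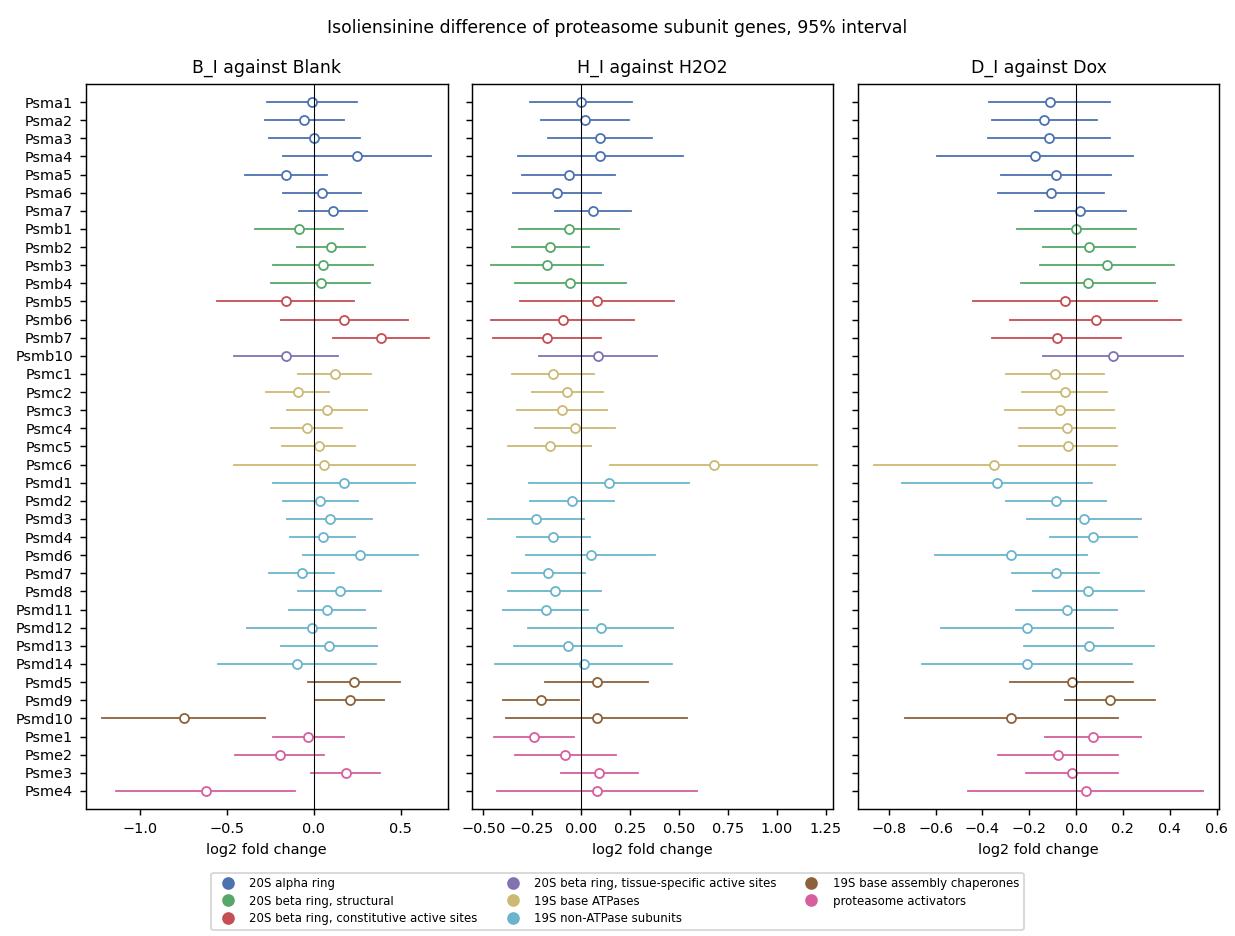
Log2 fold change of the 39 tested genes with 95% intervals in B_I against Blank, H_I against H2O2 and D_I against Dox. All points are open, as no adjusted p was under 0.05, and Psmd10 and Psme4 lie furthest left in the first panel.

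D_I against B_I, a comparison added after seeing the data, gives the doxorubicin difference in libraries that share none with Dox and Blank. Here 5 of 39 were higher and 1 lower (15.4%, against 18.8% of all genes called, 9.41% higher and 9.41% lower). Psmd11 stood at 54.3, 50.0 and 48.7 CPM in B_I and 79.8, 67.7 and 71.1 in D_I (log2 0.51, SE 0.105, edgeR adjusted p = 0.00146), and the groups did not overlap. Psmd2, at 464, 409.5 and 519 CPM in B_I and 598, 639 and 589.9 in D_I (0.39, 0.0101), and Psmd7 (0.37, 0.0062) were also higher without overlap. Psme1, at 221, 227 and 272 CPM in B_I, was lower in every D_I library (-0.52, 0.00064).

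These 4 genes were thus called in the same direction with and without isoliensinine. The share of all genes called in both comparisons is not given. The other 2 calls were Psme4 (0.81, 0.0247) and Psmd10 (0.78, 0.0174), whose B_I libraries lay below their Blank mean, as given above. Without Blank_4 and B_I_3, Psme4 stood at 0.55, adjusted p = 0.0638. Psmd11 and Psme1 kept their calls in all 14 alternatives. Single libraries decided the others: Psmd2 was not called without B_I_2 or D_I_2, Psmd7 without B_I_3, Psmd10 without B_I_2, D_I_1 or D_I_2, and Psme4 without any of B_I_2, B_I_3, D_I_1 and D_I_2. Psma4 (0.40, 0.183), Psmd6 (0.19, 0.456), Psmd1 (0.22, 0.49), Psmb7 (0.02, 0.946) and Psmb10 (-0.26, 0.223) were not called with isoliensinine. The difference between the doxorubicin changes with and without isoliensinine was not called for any of them by edgeR. Of these differences, those at an unadjusted p under 0.05 were -0.55 for Psmd6 (95% interval -1.01 to -0.08, unadjusted p = 0.0236) and -0.47 for Psmb7 (-0.86 to -0.08, 0.0205).

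Over the 39 genes the doxorubicin changes with and without isoliensinine had Pearson's r of 0.72 and Spearman's rho of 0.82, with 36 of the same sign, and over all tested genes 0.56 and 0.65. Without Blank_4 and B_I_3, which stand apart together, the values over the 39 were 0.55 and 0.56, with 28 of the same sign, and over all tested genes 0.41 and 0.56, so that the rank correlation of the 39 was then no higher than that of all genes. Genes are not independent replicates, and no p is given. H_I against B_I, also added later, called 0 subunit genes higher and 1 lower (1.46% of all genes called): Psme1 (-0.45, 0.0227), a call lost without B_I_3 or any H_I library and in a fit of the compared groups alone.

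**Figure D5:**
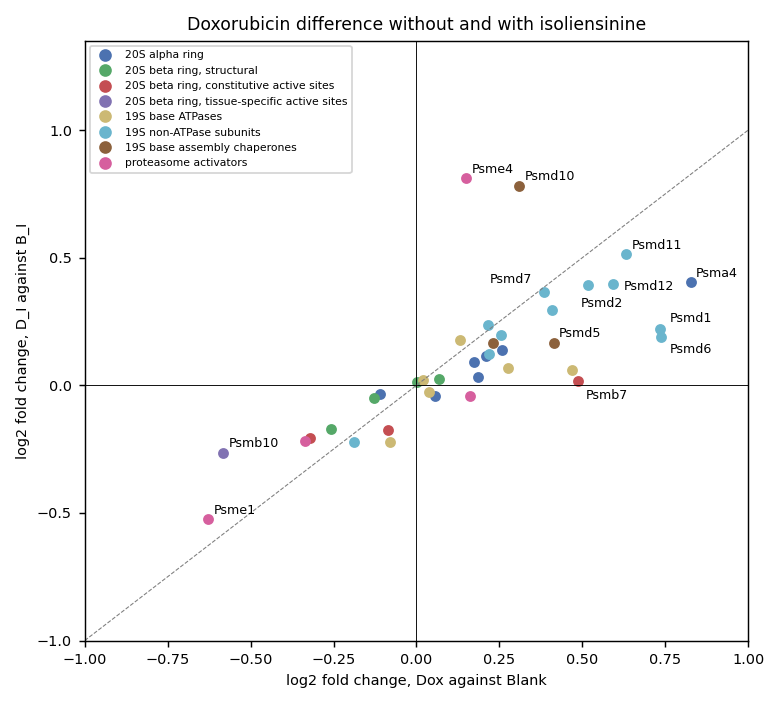
Log2 fold change of each tested gene in Dox against Blank (horizontal) and in D_I against B_I (vertical), with the line of equality dashed and called genes named. Psmd11, Psmd2, Psmd7 and Psme1 are called on both axes, and Psmd6, Psmd1 and Psmb7 lie well below the line.

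The 19S non-ATPase genes summed to 2218 to 2669 CPM in Blank, 2502 to 2941 in H2O2, 2821 to 3111 in Dox and 2852 to 2972 in D_I, so that Dox and D_I lay above every Blank library. The ATPases (1436 to 1732 in Blank, 1555 to 1684 in Dox) and the structural beta genes (1429 to 1993 and 1479 to 1648) overlapped. Activators summed to 472 to 561 CPM in Blank and 416 to 430.3 in Dox, without overlap. Their sums were also below every Blank library in D_I (421 to 426) and H_I (415 to 457). Those in H2O2 (449 to 473) and B_I (484 to 549) overlapped Blank. All 39 together held 7005 to 8671 CPM in Blank and 7929 to 8602 in Dox, and the highest sum of any library was that of Blank_4. Sums follow the abundant genes, and no test was run on them.

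Genes that regulate, assemble or feed the proteasome were read from a list of 44, all tested. In Dox against Blank 10 were higher and 1 lower (25%, against 21.7% of all genes called, 10.3% higher and 11.4% lower). Of 10 genes of the NRF1 pathway 3 were higher (30%, against 10.3% of all genes). Nfe2l1, which encodes NRF1, stood at 199.6, 234 and 199.9 CPM in Blank and 248, 269.9 and 285 in Dox (0.34, edgeR adjusted p = 0.0152), a rise that was not called without Blank_1, Blank_4 or Dox_3, with a replicate block or in a fit of the compared groups alone. Its dimer partners Mafk (1.10, 2.05e-05) and Maff (1.10, 0.00071) also rose. In H2O2 Maff and Mafk were also higher, Maff by 1.46 (0.000677) and Mafk by 0.64 (0.0348), and Nfe2l1 was not called (0.10, 0.737). In the fit of the compared groups alone neither Maff (adjusted p = 0.168) nor Mafk (0.507) was called in H2O2, and Mafk also lost its call with a replicate block and without Blank_1, Blank_2 or H2O2_3.

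Of 14 genes for ubiquitin shuttles and for VCP, the ATPase that extracts ubiquitinated proteins from membranes and complexes, 6 were higher and 0 lower in Dox. Those 42.9% compare with 10.3% of all genes called higher. Zfand2a (0.99, 0.00109) and Ubqln1 (0.80, 3.43e-05), which encode proteasome-linked shuttles, and the VCP cofactor gene Ufd1 (0.61, 0.0176) changed most. Ufd1 lost its call without Blank_1, Blank_2, Dox_1 or Dox_3. Among 7 other proteasome-bound proteins Ube3c, a ubiquitin ligase gene, rose (0.62, 0.00204). Among 6 assembly factors Psmg4 fell (-0.72, 0.0145), a call lost without Blank_4, Dox_1 or Dox_3, with a replicate block and in a fit of the compared groups alone, and Pomp, the core's maturation factor, stood at 0.03 (0.911). None of 6 ubiquitin and E1 genes was called (edgeR; 0 at an unadjusted p under 0.05, and 0 by DESeq2), though Ubb was called without Blank_4.

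In D_I against B_I 10 of the 44 were higher and 0 lower (22.7%, against 18.8% of all genes called, 9.41% higher and 9.41% lower). They again held Mafk (1.25), Maff (1.40) and Nfe2l1 (0.48, 0.00137), the last called in all 14 alternatives. Ddi2 (0.72, 0.0155), the gene of the protease that activates NRF1, belonged to the NRF1 list and was called there as well, but not without B_I_2, B_I_3 or D_I_2 (adjusted p up to 0.099). In Dox against H2O2 7 were higher and 2 lower (20.5%, against 13.1% of all genes called, 6.73% higher and 6.33% lower). Among them were Uba6, an E1 gene (1.27, 0.0158), Ufd1 (0.68), Vcp (0.55, 0.000304) and Psmg4 (-0.74). Of these 4, Vcp kept its call in all 14 alternatives, and the others lost theirs without Dox_1, Dox_3 or H2O2_3, as did Ufd1 without H2O2_1.

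Counting limits bear on some of these genes. In GENCODE M21 transcripts 11 of the 41 genes had a stretch of at least 300 bases that was at least 95% identical to another gene, and for 8 of them to a pseudogene. Of the genes called in Dox against Blank, Psma4, Psmd1, Psmd2 and Psmd11 had such a stretch. Reads from it may be lost or assigned to the other gene, and how they were counted is not stated. The match of Psmd1 spans 305 bases and is not to a pseudogene. Genes that overlap at the same locus were not left out of the search. Change and deposited gene length were related across the 39 genes (Spearman's rho 0.43 in Dox against Blank, and 0.15 over all genes). The relation was not particular to doxorubicin: rho was 0.38 in H2O2 against Blank (-0.01 over all genes) and 0.27 in B_I against Blank (-0.13). Deviations of Blank_4 and B_I_3 from the other libraries of their groups were also related to length (-0.39 each). These values are a description without a p, and the part of length in the calls was not tested.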

How the data were processed

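Per the file headers, the deposited table gives raw read counts for every gene in each library. It also gives the authors' FPKM, each equal to the count over gene length and library total (100% of values, within a relative difference of 1e-06). HTSeq 0.9.1, HISAT2 2.1.0 and fastp 0.22.0 were used, per the submitters' processing notes, which give them no roles. The genome build and whether counting used strand are not stated there. The 51 rows without a symbol held 0.0187% of the counts and were kept under their identifiers. Columns were matched to samples by title. The design text speaks of biological replicates, but how the cultures were separated is not given, so p-values measure the spread between these libraries. Between replicates, chi-square over its degrees of freedom was at least 5.51, so no library was counted as a repeat.

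In R 4.3.3, edgeR 4.0.16 kept 13375 genes by its expression filter on the groups, scaled libraries by the trimmed mean of M-values method (TMM), and applied its robust quasi-likelihood test to 1 fit of all 18 libraries with the 6 group means as terms. Benjamini-Hochberg adjustment was over all 13375 genes, and a gene was called at an adjusted p under 0.05. CPM values are TMM-scaled. SE is the absolute log2 fold change over the square root of the F statistic, which also gives the 95% intervals. The biological coefficient of variation was estimated at 0.219. The script was tested on simulated data.

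The subunit genes and the pathway list were chosen with earlier results of these data known. Values in every library were given for Psmb5, Psmb6, Psmb7, Psmb10 and Psme1 to Psme4, and in each comparison for up to 4 called subunit genes with the largest change in each direction. Other subunit genes are given by log2 change or range. Up to 3 called genes with the largest change were named per pathway list and comparison, with Nfe2l1, Pomp, Psmb8 and Psmb9 in any case. Promoters came from RefSeq. Alternatives were DESeq2 1.42.0, other scalings and filters, fits of the compared groups alone, a block for replicate number, and leaving out single libraries or Blank_4 with B_I_3. No other library shares the number of Blank_4, so the block and the fit without Blank_4 are not separate checks of comparisons with Blank.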

Additional observations from a re-analysis of the deposited data

How the results depend on the processing

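In Dox against Blank, 8 of the 11 called subunit genes kept their call in all 14 alternatives, and Psmd1, Psmd12 and Psmd5 did not. The count ran from 8 to 14 when single libraries were left out, and was 12 by DESeq2, 13 without Blank_4 and B_I_3, and 8 in a fit of the groups compared. In H2O2 against Blank, with 0 called, it was 3 by DESeq2, 3 without Blank_4 and B_I_3, and 0 to 1 without single libraries (1 without Blank_4). In Dox against H2O2, with 6 called, it was 2 without a filter on low counts, 3 with DESeq2 size factors, 3 in a fit of the groups compared and 0 to 5 without single libraries. In D_I against B_I, with 6 called, it was 3 without B_I_2 or D_I_2 and 3 to 6 without single libraries. In H_I against B_I, with 1 called, it was 0 in a fit of the groups compared and 0 to 1 without single libraries. The cause of these moves was not tested, and the share of all genes called in each alternative is not given beside them. For the isoliensinine comparisons within a background and the interactions the count stayed 0 in each alternative run. No called value turned its direction. Same-numbered libraries did not deviate together (4 of 21 pairs correlated over 0.1, and the range was -0.19 to 0.28). With the number as a replicate block the counts were 9, 0, 7 and 8 in Dox against Blank, H2O2 against Blank, Dox against H2O2 and D_I against B_I. That block leaves Blank_4 out of the comparisons with Blank. The number of libraries limits precision: the median 95% interval of a subunit gene reached 0.25 log2 units either way in comparisons of a pair of groups.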
